A study of Mus musculus with 6 samples.

Results

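Genes of B and T lymphocytes and of the lymph node were followed in inguinal white adipose tissue, a fat depot under the skin of the groin. The set has 38 named genes, and 34 of them were measured among the 18193 genes of the array. They comprise 14 B cell genes, 14 T cell genes, 3 lymph node chemokines and organisers, and 3 genes of natural killer (NK) and cytotoxic cells. Each gene was read from 1 probe set, the one with the highest mean over the 6 arrays among those annotated to that gene alone. Lck and Tcf7 were not analysed here, and Ccl19 and Ccl21a were reached by probe sets shared with near-identical copies only, which entered no test.

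The fat came from 3 Naa10-KO males and 3 wild-type (WT) males, each measured on its own array. Naa10 encodes an enzyme that acetylates the N-termini of proteins, and the study asked about its part in the heat production of beige fat. All 6 mice were kept on a high-fat diet, in which fat supplied 60% of the calories. The diet began at the age of 6 weeks and lasted 15 weeks, and all 6 mice spent 4 h at 4 °C before the fat was collected. The labels used here give neither the strain nor how or in which cells Naa10 was deleted, and Naa10 itself was not analysed here, so the genotype labels were not checked on the targeted transcript. The adipocyte hormone gene Adipoq read 15.75, 15.81 and 15.56 on the log2 scale in Naa10-KO tissue and 15.58, 15.46 and 15.78 in WT tissue, high on all 6 arrays.

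A lymph node is built of follicles filled with B cells and a surrounding zone of T cells. Stromal cells draw the B cells in with the chemokine Cxcl13 and the T cells with Ccl19 and Ccl21, and lymphocytes leave the blood through high endothelial venules. The inguinal fat pad encloses such a node, and fat itself holds scattered lymphocytes and NK cells among many macrophages. The labels do not say whether the node was removed. In RNA of whole tissue, fewer cells of a type and less RNA per cell cannot be told apart.

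Values below are log2 signals as deposited, given for each genotype in the order of replicates 1, 2 and 3. A step of 1 is a doubling of signal. Low signal was marked at 5.86, the median over all probe sets and arrays, since no detection calls were used. The higher genotype mean reached that mark in 24 of the 34 genes and stayed below it in 10. On all 6 arrays 17 genes lay at or above it and 3 genes (Cd4, Cd8b1 and Ncr1) lay below it. Differences between single low values carry little weight for this reason.

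The B cell genes separated the mice within each genotype more than they separated the genotypes. Their mean was 7.04, 5.52 and 8.02 in the 3 Naa10-KO arrays, against 7.65, 7.49 and 6.11 in the 3 WT arrays. Naa10-KO replicate 3 was the highest and Naa10-KO replicate 2 the lowest of all 6, with WT replicate 3 next to lowest. The spread between the highest and the lowest array was 2.50 (5.67-fold) among Naa10-KO mice and 1.54 (2.90-fold) among WT mice. The genotype means of these values, 6.86 ± 1.26 in Naa10-KO and 7.08 ± 0.85 in WT (SD, n = 3 each), differed by less than the SD within either genotype. With values below 5.86 raised to that mark, the spreads were 1.51 in Naa10-KO and 0.77 in WT. Without Naa10-KO replicate 2 the Naa10-KO spread was 0.98, and without WT replicate 3 the WT spread was 0.15.

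**Figure D1:**
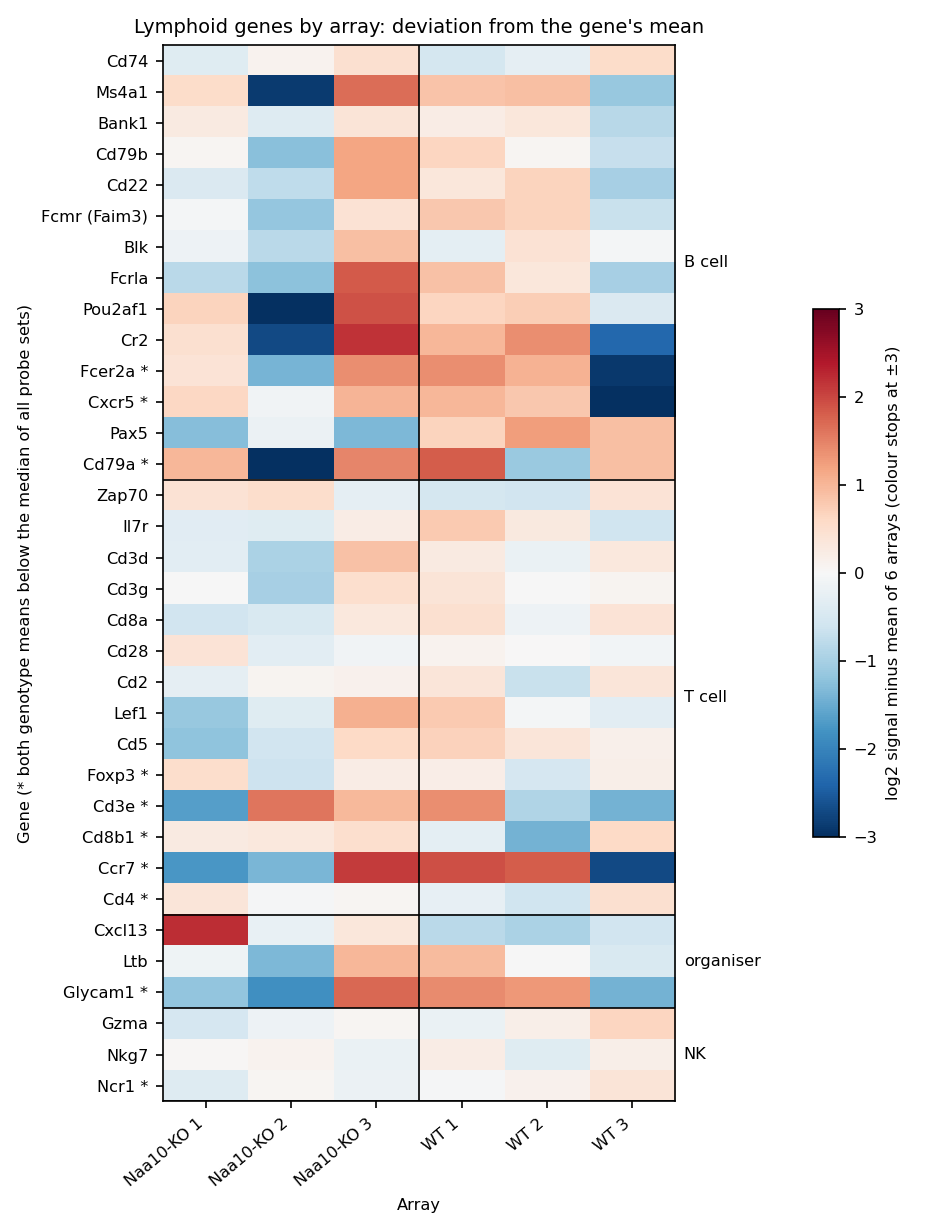
Heat map of the 34 measured genes (rows, by cell type) on the 6 arrays (columns, Naa10-KO left of WT), coloured by log2 signal minus the gene's mean over the 6 arrays, with the colour scale stopping at ±3. Most B cell rows are red in Naa10-KO replicate 3 and blue in Naa10-KO replicate 2 and WT replicate 3, while rows of the NK genes stay pale, and asterisks mark genes whose genotype means are both below 5.86.

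The surface proteins of mature B cells had wide ranges within both genotypes. Ms4a1, the CD20 antigen of B cells, measured 10.12, 6.70 and 11.25 in Naa10-KO tissue, against 10.42, 10.46 and 8.43 in WT tissue. That is a 23.4-fold range among the Naa10-KO mice and a 4.09-fold range among the WT mice, around genotype means that differed by -0.41 (95% interval -3.73 to 2.90). A second probe set of Ms4a1 kept the array order within Naa10-KO and within WT, at 8.09, 5.76 and 9.68 in Naa10-KO and 8.72, 8.77 and 6.65 in WT. Cr2, the complement receptor that lowers the threshold for B cell activation, read 6.34, 3.17 and 8.04 in Naa10-KO tissue, against 6.87, 7.27 and 3.51 in WT tissue. Its low values lie under the mark, so its ranges of 4.86 and 3.76 rest partly on dim signal. Cd22, an inhibitory co-receptor of the B cell receptor, measured 6.95, 6.62 and 8.57 in Naa10-KO tissue, against 7.73, 8.05 and 6.40 in WT tissue, all above the mark. Fcrla, an Fc receptor-like protein of B cells, read 5.35, 4.94 and 8.0 in Naa10-KO tissue and 7.04, 6.51 and 5.16 in WT tissue. Fcmr, the receptor for the Fc part of IgM listed under its older name Faim3, read 7.31, 6.22 and 7.81 in Naa10-KO and 8.19, 8.05 and 6.71 in WT. On the probe sets used, all 5 genes had Naa10-KO replicate 3 as the highest and Naa10-KO replicate 2 and WT replicate 3 as the lowest array of their genotype. Fcer2a, the low-affinity IgE receptor, had the same order at values from 2.43 to 6.72, with both genotype means below the mark. The other probe sets of Cd22, Fcrla and Fcer2a, all with genotype means below the mark, did not keep the complete order.

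The signalling subunits and kinases of the B cell receptor followed. Cd79b, which carries the signal of the receptor into the cell together with Cd79a, measured 8.27, 6.96 and 9.40 in Naa10-KO tissue, against 8.85, 8.27 and 7.53 in WT tissue. Its genotype means were 8.21 ± 1.22 in Naa10-KO and 8.22 ± 0.66 in WT, a difference of less than 0.01 in size with a 95% interval from -1.77 to 1.76. Bank1, a scaffold protein of the same receptor, spanned 8.13 to 8.91 in Naa10-KO and 7.68 to 8.85 in WT and kept the array order of the surface proteins. Cd79a was dim, at 5.74, 0.68 and 6.22 in Naa10-KO and 6.56, 3.63 and 5.64 in WT, with its lowest WT value in replicate 2. Blk, a Src family kinase of B cells, read 6.18, 5.52 and 7.23 in Naa10-KO and 6.04, 6.75 and 6.26 in WT, and its lowest WT array was replicate 1.

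The transcriptional regulators did not share 1 pattern. Pou2af1, the B cell coactivator of octamer-binding factors, read 6.82, 2.64 and 8.08 in Naa10-KO tissue, against 6.80, 6.89 and 5.72 in WT tissue, the array order of the surface proteins. Pax5, the factor that holds B cells in their lineage, read 3.87, 4.95 and 3.78 in Naa10-KO tissue, against 5.81, 6.39 and 6.03 in WT tissue. The Naa10-KO values were all lower than the WT values and all under the mark. The difference was -1.88 (SE 0.38, 95% interval -2.82 to -0.93), with limma's adjusted p = 0.283, and it was -0.24 with low values raised to the mark. The other Pax5 probe set, below the mark, read 1.36, 4.33 and 2.97 in Naa10-KO and 3.81, 4.98 and 0.93 in WT, which overlap.

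Cxcr5 and Cd74 complete the B cell genes. Cxcr5, the receptor by which B cells follow Cxcl13 into follicles, read 5.80, 5.06 and 6.21 in Naa10-KO tissue and 6.17, 6.00 and 1.81 in WT tissue, again with the order of the surface proteins but with genotype means under the mark. Cd74, the invariant chain of MHC class II, which macrophages and dendritic cells make as well, read 11.26, 11.75 and 12.11 in Naa10-KO tissue and 11.11, 11.38 and 12.20 in WT tissue. It had WT replicate 3 as the highest WT array, the reverse of the B cell genes named above that had it as the lowest.

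Counted over the 14 B cell genes, Naa10-KO replicate 3 was the highest Naa10-KO array in 13, where 36.4% of all genes had that order. Naa10-KO replicate 2 was the lowest Naa10-KO array in 12 (28.9% of all genes) and WT replicate 3 the lowest WT array in 10 (34.8% of all genes). All 3 conditions held in 10 of the 14, against 6.44% of all genes and 6.06% of the 11795 genes whose higher genotype mean reached the mark. This order was read off the genes themselves, so the counts describe them and test nothing. A range over 1 within both genotypes was found in 10 of the 14 B cell genes, 3 of the 14 T cell genes and 15 of all 34 genes, against 22.9% of all genes. Among genes reaching the mark it was found in 7 of 11 B cell genes, 1 of 9 T cell genes and 9 of 24 genes of the set, against 2.89% of all such genes.

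Start regions are shown for the 5 genes with the widest range within a genotype among those B and T cell genes whose window holds at least 1 of 6 searched motifs. Cd79a, Fcer2a and Cd3e among them are dim, with both genotype means under the mark. They are RefSeq windows of 300 bases (GRCm38.p6), from 250 bases before to 50 bases after the annotated start, given 5′ to 3′ on the strand of the gene, with motif matches in capitals.
Cd79a: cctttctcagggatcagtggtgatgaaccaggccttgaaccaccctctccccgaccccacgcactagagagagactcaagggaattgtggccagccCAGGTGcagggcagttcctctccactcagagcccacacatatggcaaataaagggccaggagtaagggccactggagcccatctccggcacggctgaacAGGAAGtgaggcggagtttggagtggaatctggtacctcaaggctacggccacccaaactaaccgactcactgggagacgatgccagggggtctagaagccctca
Cr2: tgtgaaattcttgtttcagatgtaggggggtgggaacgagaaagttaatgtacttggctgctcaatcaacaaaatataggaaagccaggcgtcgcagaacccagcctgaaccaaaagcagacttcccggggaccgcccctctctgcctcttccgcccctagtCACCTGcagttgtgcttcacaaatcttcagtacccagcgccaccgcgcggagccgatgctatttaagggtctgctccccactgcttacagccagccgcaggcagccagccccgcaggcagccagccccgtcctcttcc
Fcer2a: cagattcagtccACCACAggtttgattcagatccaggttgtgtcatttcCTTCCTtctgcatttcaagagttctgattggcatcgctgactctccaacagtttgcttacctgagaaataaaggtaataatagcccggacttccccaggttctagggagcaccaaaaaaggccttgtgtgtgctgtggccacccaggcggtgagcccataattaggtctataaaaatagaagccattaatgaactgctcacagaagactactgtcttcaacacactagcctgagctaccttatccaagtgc
Cd3e: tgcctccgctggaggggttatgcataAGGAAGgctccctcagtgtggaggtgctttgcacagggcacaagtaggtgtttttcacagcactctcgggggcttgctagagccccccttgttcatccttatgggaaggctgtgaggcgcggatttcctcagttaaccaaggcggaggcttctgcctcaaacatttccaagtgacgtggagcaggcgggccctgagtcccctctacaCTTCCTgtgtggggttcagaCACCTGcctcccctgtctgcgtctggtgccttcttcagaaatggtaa
Fcrla: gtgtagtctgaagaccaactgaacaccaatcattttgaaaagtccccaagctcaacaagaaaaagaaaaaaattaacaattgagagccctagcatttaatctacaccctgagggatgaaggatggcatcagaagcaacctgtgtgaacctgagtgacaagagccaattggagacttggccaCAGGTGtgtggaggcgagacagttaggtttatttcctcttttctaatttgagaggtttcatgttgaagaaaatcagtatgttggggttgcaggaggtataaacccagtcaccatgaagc
The windows lie at chr7:24897247-24897546 on the plus strand for Cd79a, and on the minus strand at chr1:195176670-195176969 for Cr2, chr8:3694125-3694424 for Fcer2a (1 of its 3 windows), chr9:45009562-45009861 for Cd3e and chr1:170927534-170927833 for Fcrla. The capitals mark an E-box in Cd79a, Cr2, Cd3e and Fcrla, an Ets core in Cd79a and Fcer2a, a pair of Ets cores in Cd3e and a Runx match in Fcer2a, and no matches overlap.

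The motifs were searched on both strands in 39 windows, which belong to 28 of the 38 genes. The E-box CAGGTG stood in 20 of the 39 windows, against 20.2% of all 32851 windows of the table. It stood in 7 of the 11 B cell windows and in 10 of the 19 T cell windows. The Ets core AGGAAG stood in 19 of 39, against 35.4% of all windows, and the Runx motif TGTGGT in 8 of 39, against 16.8%. The EBF1 palindrome was found in the Cd22 window only, against 0.904% of all windows, and the TCF/LEF motif CTTTGAT in the Cd3d window only, against 3.73%. The octamer ATTTGCAT was in 0 of the 39 windows, against 1.74% of all. A match of letters is a description of the window and not a binding site.

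The T cell genes varied less. Their mean was 5.82, 5.94 and 6.71 in Naa10-KO tissue, against 6.65, 6.01 and 6.04 in WT tissue, a spread of 0.89 (1.85-fold) in Naa10-KO and 0.64 (1.56-fold) in WT. Naa10-KO replicate 3 and WT replicate 1 were the high arrays, and without them the spreads were 0.12 in Naa10-KO and 0.03 in WT. On the probe sets used, Naa10-KO replicate 3 was the highest Naa10-KO array in 9 of the 14 T cell genes. The complete order of the B cell genes held in 1 of the 14, Il7r. Cd8a and Cd28 had that order on another probe set that reached the mark.

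Among the T cell receptor subunits, Cd3d measured 7.26, 6.62 and 8.45 in Naa10-KO tissue, against 7.83, 7.38 and 7.88 in WT tissue. Cd3g measured 7.51, 6.53 and 8.03 in Naa10-KO tissue, against 7.92, 7.52 and 7.61 in WT tissue. Both followed the B cell order among the Naa10-KO mice, with replicate 3 high and replicate 2 low, while the WT mice lay within 0.50 and 0.40 of each other. Cd3e was dim, from 2.94 to 6.19, and had its lowest Naa10-KO value in replicate 1.

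The co-receptors divide T cells into helper and cytotoxic cells. Cd8a, of cytotoxic T cells, measured 6.52, 6.63 and 7.43 in Naa10-KO tissue and 7.58, 6.95 and 7.50 in WT tissue, a difference of -0.48 (SE 0.32, limma's adjusted p = 0.668). The other probe sets of Cd8a differed by -0.08, -0.19, 0.58 and 0.05. The first of these, the only one to reach the mark, had the complete B cell order. Cd8b1, the partner of Cd8a, lay between 3.08 and 5.10. Cd4, of helper T cells, lay between 2.26 and 3.34 on all 6 arrays, so its probe set gave no usable level. Foxp3, the factor of regulatory T cells, lay between 4.96 and 6.12, with both genotype means under the mark.

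Zap70, the kinase that binds the activated T cell receptor, ran against the others on the probe set used. That probe set read 9.20, 9.30 and 8.49 in Naa10-KO tissue and 8.24, 8.18 and 9.17 in WT tissue. Naa10-KO replicate 3 was its lowest Naa10-KO array and WT replicate 3 its highest WT array. The 2 other probe sets of Zap70 were below the mark, and 1 of them differed in the other direction, by -0.73. Both had Naa10-KO replicate 2 as the lowest Naa10-KO array, where the probe set used had it as the highest. Both kept WT replicate 3 as the highest WT array. The order among Naa10-KO mice was therefore seen on 1 probe set only.

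The remaining T cell genes at clear signal had ranges of up to 0.72 in Naa10-KO and 1.40 in WT on the probe set used. Il7r, the interleukin-7 receptor that keeps naive T cells alive, measured 7.92, 7.89 and 8.50 in Naa10-KO tissue and 9.05, 8.56 and 7.65 in WT tissue. Its second probe set read 7.04, 6.34 and 7.30 in Naa10-KO and 7.16, 7.45 and 6.15 in WT, with WT replicate 3 low in both. Cd28, the co-stimulatory receptor, ranged over 0.72 in Naa10-KO and 0.21 in WT, and its second probe set over 0.90 and 1.01, with differences of -0.01 and 0.02. That second probe set reached the mark and had the complete B cell order, at 6.74, 6.60 and 7.50 in Naa10-KO and 7.46, 6.87 and 6.45 in WT. The probe set used had Naa10-KO replicate 1 as its highest Naa10-KO array. Cd2, an adhesion receptor, ranged over 0.41 in Naa10-KO and 1.05 in WT.

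The genes of naive and recirculating T cells were dimmer and ranged more widely. Ccr7, the receptor that guides T cells into the node, read 2.53, 2.89 and 6.36 in Naa10-KO tissue, against 6.20, 6.08 and 1.56 in WT tissue. The 3 high values came from Naa10-KO replicate 3 and WT replicates 1 and 2, the arrays on which B cell genes were high, but none was far above the mark. Lef1, a factor of naive T cells, read 4.90, 5.67 and 7.09 in Naa10-KO and 6.82, 5.97 and 5.72 in WT. Cd5, which dampens receptor signals, read 4.45, 5.08 and 6.25 in Naa10-KO and 6.34, 6.02 and 5.80 in WT, a difference of -0.79 (SE 0.49, limma's adjusted p = 0.646).

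Of the organisers, Ltb and Cxcl13 differed in pattern. Ltb, the lymphotoxin subunit by which lymphocytes instruct the stroma, measured 8.48, 7.25 and 9.61 in Naa10-KO tissue, against 9.56, 8.60 and 8.15 in WT tissue, the B cell order. Cxcl13, the follicle chemokine that stromal cells make, measured 12.21, 9.78 and 10.33 in Naa10-KO tissue, against 9.18, 9.04 and 9.41 in WT tissue. All Naa10-KO values of Cxcl13 exceeded all WT values, by 1.56 on average (SE 0.65, 95% interval -0.08 to 3.21), with limma's adjusted p = 0.548. Its highest value was in Naa10-KO replicate 1, without which the difference was 0.84, and the second probe set differed by 1.17 and had groups that overlap, at 10.45, 8.30 and 8.23 in Naa10-KO and 7.72, 8.28 and 7.47 in WT. Glycam1, a ligand for lymphocytes on high endothelial venules, read 3.09, 2.45 and 6.01 in Naa10-KO and 5.69, 5.57 and 2.85 in WT, and reached the mark on 1 array.

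The 3 NK and cytotoxic genes varied little between mice. Their mean was 6.52, 6.81 and 6.70 in Naa10-KO tissue, against 6.80, 6.79 and 7.21 in WT tissue, and WT replicate 3, low for B cell genes, was the highest. Gzma, a granule protease of killer cells, measured 7.90, 8.25 and 8.46 in Naa10-KO tissue and 8.21, 8.57 and 9.05 in WT tissue. Nkg7, a granule membrane protein, ranged over 0.32 in Naa10-KO and 0.58 in WT, and Ncr1, an activating receptor of NK cells, lay under the mark on all 6 arrays. The 12 measured of 13 further NK and cytotoxic genes averaged 6.48, 6.05 and 6.63 in Naa10-KO tissue and 5.79, 6.21 and 6.05 in WT tissue. Naa10-KO replicate 2 was the lowest Naa10-KO array in 9 of the 12, against 28.9% of all genes. A range over 1 in both genotypes was found in 5, against 22.9% of all genes, but in 0 of the 6 that reached the mark.

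**Figure D2:**
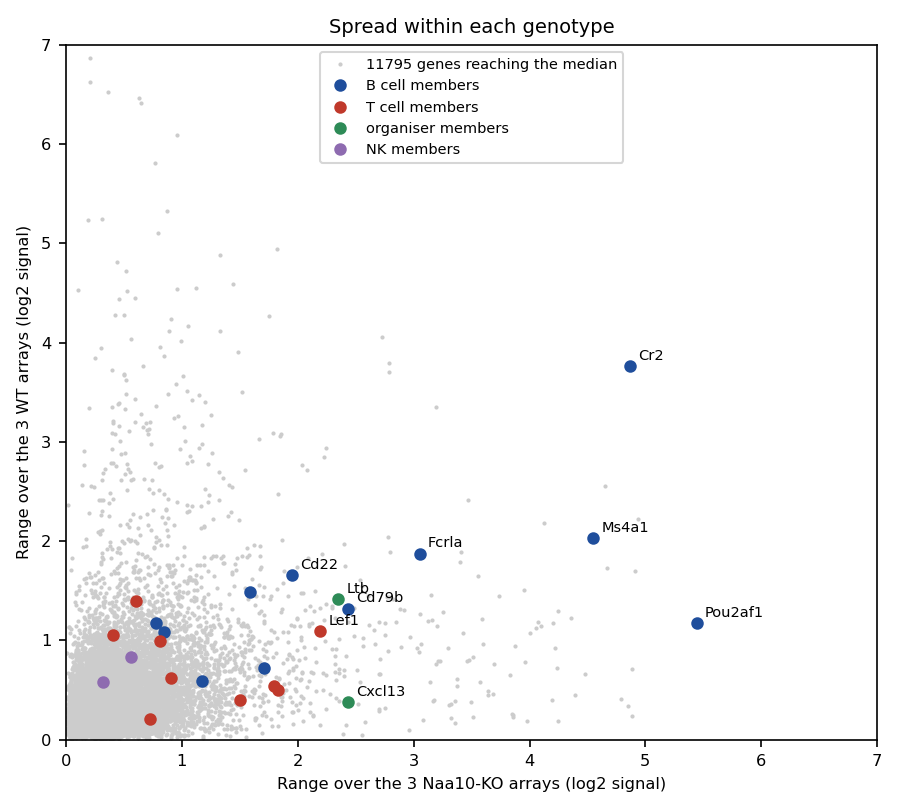
Range of log2 signal over the 3 Naa10-KO arrays (x axis) against the range over the 3 WT arrays (y axis), for the genes of the set whose higher genotype mean reached the mark (coloured by cell type) and for the 11795 genes that did so in all (grey). Cr2, Ms4a1 and Fcrla lie far out on both axes, and 4 genes with larger ranges are outside the axes.

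The comparison of genotypes asked whether the lymphoid genes differed between Naa10-KO and WT fat. With limma at an adjusted p of 0.05 over all 18193 genes, 0 of the 34 genes were higher and 0 lower in Naa10-KO, where 0.0879% and 0.0275% of all genes were. At an unadjusted p of 0.05, 0 were higher and 1 (Pax5) was lower, against 4.85% and 4.35% of all genes. In 1 gene (Cxcl13) every Naa10-KO value exceeded every WT value, and in 1 (Pax5) every Naa10-KO value was below every WT value, against 10.0% and 8.14% of all genes.

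The median difference was -0.09 over the 34 genes, with 10 higher and 24 lower in Naa10-KO. Over all 18193 genes it was 0.01, with 9349 higher and 8844 lower. By group, the median difference was -0.04 for the B cell genes, -0.15 for the T cell genes, -0.32 for the organisers and -0.32 for the NK genes. The direction depended on single mice. Over the B cell genes it was 0.53 without Naa10-KO replicate 2, -0.74 without Naa10-KO replicate 3 and -0.78 without WT replicate 3. In 30 of the 34 genes the difference was smaller than the range within either genotype. Of 17 other probe sets of these genes, 8 differed in the same direction as the probe set used and 9 in the other. Of the 17, 5 reached the mark.

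The intervals of these differences were wide. The 95% interval of the difference included a doubling in Naa10-KO in 22 of the 34 genes and a halving in 23. Among the narrower ones were those of Cd74, at 0.15 (95% interval -0.79 to 1.08), Bank1, at 0.19 (95% interval -0.82 to 1.19), and Cd28, at -0.01 (95% interval -0.59 to 0.56). The median SE was 0.83 over the B cell genes and 0.51 over the 34 genes, against 0.27 over all genes.

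**Figure D3:**
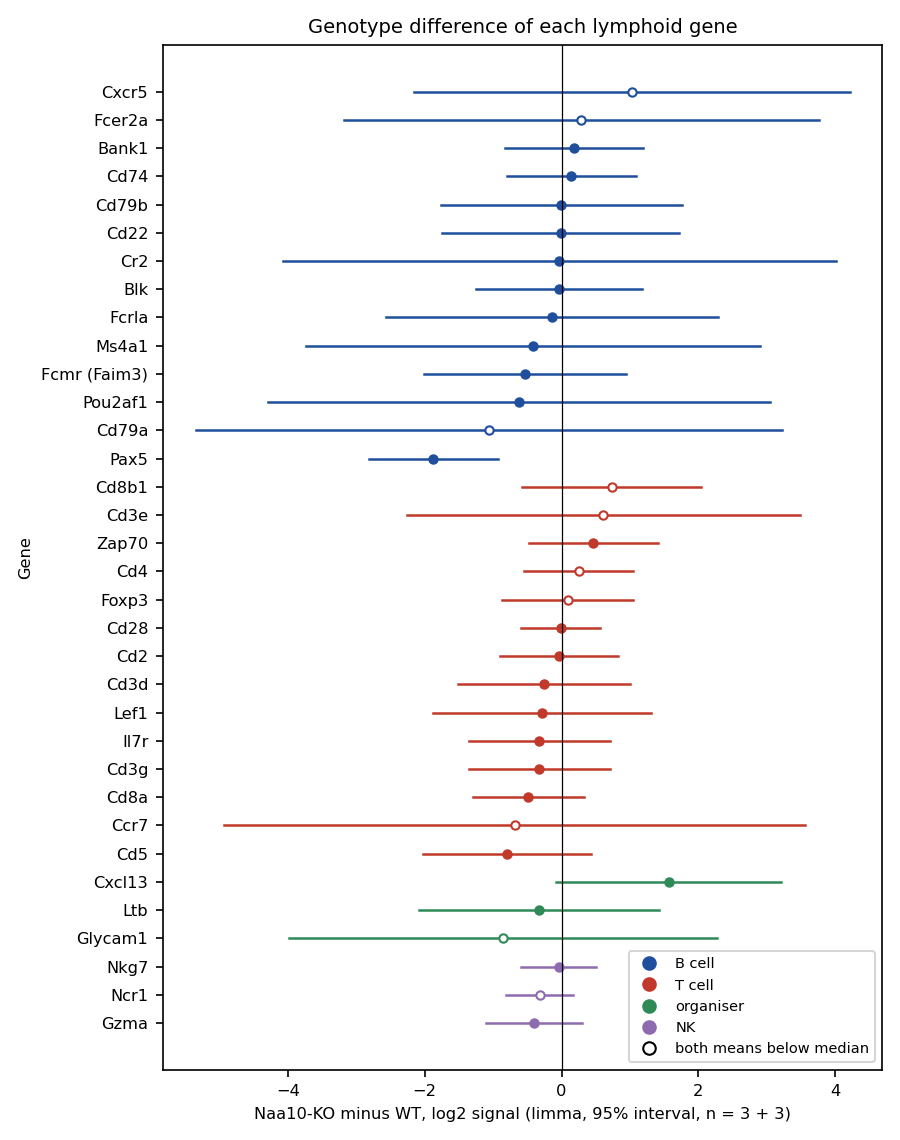
Difference of each gene, Naa10-KO minus WT in log2 signal, with limma's 95% interval (n = 3 arrays each), coloured by cell type and with open points where both genotype means are below 5.86. All intervals cross 0 except that of Pax5, whose adjusted p is 0.283.

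The mean of a wider B cell list showed the same mice apart. Of 21 further B cell genes 19 were measured, and their mean was 7.50, 7.04 and 8.19 in Naa10-KO tissue, against 7.97, 7.83 and 7.04 in WT tissue. The complete order of the B cell set held in 11 of the 19, against 6.44% of all genes. H2-Ob, a B cell modulator of MHC class II loading, measured 8.10, 5.06 and 9.99 in Naa10-KO tissue and 8.60, 8.22 and 6.38 in WT tissue. Btla, an inhibitory receptor of lymphocytes, measured 8.63, 7.23 and 9.63 in Naa10-KO and 9.09, 8.89 and 7.34 in WT, and Tnfrsf13c, the receptor for the survival factor BAFF, 6.82, 5.49 and 7.98 in Naa10-KO and 7.70, 7.52 and 6.38 in WT. Ighm, the heavy chain of IgM, also had the complete order but a larger difference between genotypes, at 12.20, 12.14 and 13.29 in Naa10-KO and 14.05, 13.96 and 13.29 in WT (difference -1.22, SE 0.40, limma's adjusted p = 0.503). Other genes of the list lacked the order. Ebf1 read 10.92, 10.67 and 10.58 in Naa10-KO and 10.49, 10.71 and 10.90 in WT, with Naa10-KO replicate 3 lowest and WT replicate 3 highest. Siglecg and Cd180 had WT replicate 3 as the highest WT array, and Swap70 had Naa10-KO replicate 3 as the lowest Naa10-KO array. Limma called 0 of the 19 at an adjusted p of 0.05 in either direction, and at an unadjusted p of 0.05 it called Ighm alone.

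Other lymphoid lists had spreads from nearly that of the wider B cell list down to narrow ones. The 22 measured of 27 further T cell genes averaged 5.72, 5.22 and 6.33 in Naa10-KO tissue, against 6.20, 5.98 and 5.37 in WT tissue. Their spread was 1.11 in Naa10-KO and 0.83 in WT, against 1.15 and 0.94 for the 19 further B cell genes. These spreads include dim genes. The 12 T cell genes reaching the mark averaged 7.14, 6.79 and 7.76 in Naa10-KO and 7.53, 7.41 and 7.15 in WT. The 17 B cell genes reaching it averaged 7.69, 7.32 and 8.45 in Naa10-KO and 8.19, 8.13 and 7.38 in WT. At clear signal the T cell means thus lay closer together in WT than the B cell means. The mean of all 22 T cell genes had the complete B cell order, which held in 5 of the 22 single genes, against 6.44% of all genes. Bcl11b, a factor of T cell identity, had the widest range of the 12 that reached the mark, at 5.77, 3.17 and 7.53 in Naa10-KO and 7.77, 7.25 and 6.55 in WT. Ikzf2, a factor of regulatory T cells, had the smallest p, with a difference of 0.71 (SE 0.17, limma's adjusted p = 0.414). The 21 measured of 25 antigen receptor signalling genes, which T and B cells share, averaged 7.59, 7.87 and 8.22 in Naa10-KO and 8.06, 8.02 and 7.56 in WT. The 11 genes of antibody-secreting cells had means that spread over 0.14 in Naa10-KO and 0.13 in WT, though single genes moved apart. Mzb1, a chaperone of immunoglobulin assembly, read 7.17, 7.15 and 9.28 in Naa10-KO and 8.26, 8.03 and 8.01 in WT, while the dim Fkbp11 read 5.94, 5.78 and 3.16 in Naa10-KO and 5.43, 6.05 and 3.44 in WT. Limma called 0 genes of these lists at an adjusted p of 0.05 in either direction.

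The 9 measured genes of MHC class II and its partners had Naa10-KO replicate 3 as the highest Naa10-KO array in 8 and the complete B cell order in 3. Their mean was 9.69, 9.39 and 10.72 in Naa10-KO tissue, against 10.17, 9.99 and 9.74 in WT tissue. It too had the B cell order, with a spread of 1.32 in Naa10-KO and 0.43 in WT. H2-Ob, which is also on the wider B cell list, had the widest range of the 9, at 8.10, 5.06 and 9.99 in Naa10-KO. By single genes, Naa10-KO replicate 1 was the lowest Naa10-KO array in 5 of the 9 (38.3% of all genes) and replicate 2 in 4 (28.9%). The median deviation from a gene's mean was -0.33 in Naa10-KO replicate 1 and -0.10 in replicate 2, so most genes did not share the order of the mean. H2-Oa, which with H2-Ob forms a modulator found chiefly in B cells, read 6.86, 5.63 and 8.52 in Naa10-KO and 7.76, 7.04 and 6.44 in WT, the B cell order. H2-Ab1, which all antigen-presenting cells make, read 10.90, 11.36 and 11.88 in Naa10-KO and 11.54, 11.49 and 11.90 in WT, with WT replicate 3 the highest WT array as for Cd74.

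Markers of other cells were compared across the same arrays. The macrophage genes averaged 9.60, 9.47 and 9.32 in Naa10-KO tissue, against 9.60, 9.67 and 9.47 in WT tissue, with the B cell order in 0 of 14. The adipocyte genes averaged 14.24, 14.53 and 14.39 in Naa10-KO and 14.37, 14.32 and 14.77 in WT, and the blood endothelium genes had spreads of 0.05 in Naa10-KO and 0.15 in WT. The 12 skeletal muscle genes averaged 11.96, 12.14 and 12.45 in Naa10-KO tissue and 5.44, 6.22 and 9.06 in WT tissue. In 12 of 12 every Naa10-KO value exceeded every WT value (10.0% of all genes), and limma called 1 of them, Pvalb, higher (difference 3.92, SE 0.31, adjusted p = 0.0409). Their summed linear signal was 99020, 107480 and 132910 in Naa10-KO and 8208, 12142 and 20704 in WT. Within each genotype it was highest in replicate 3, the array where the B cell genes were highest among Naa10-KO and lowest among WT mice, and its part in the lymphoid values was not tested.

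The 3′ minus 5′ signal of the Gapdh control, a mark of RNA integrity, was 0.55, 0.01 and -0.19 in Naa10-KO and -0.17, -0.20 and -0.27 in WT. That of the Actb control was 2.07, 1.63 and 1.42 in Naa10-KO and 1.85, 1.73 and 1.59 in WT. Both were highest in Naa10-KO replicate 1, the middle array of its genotype for the B cell genes. Both were lowest among Naa10-KO mice in replicate 3, where B cell genes were highest, and lowest among WT mice in replicate 3, where B cell genes were lowest, and their part in the lymphoid values was not tested. Correlation between any 2 arrays over all probe sets lay between 0.903 and 0.917, so no pair of arrays held the same values.

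**Figure D4:**
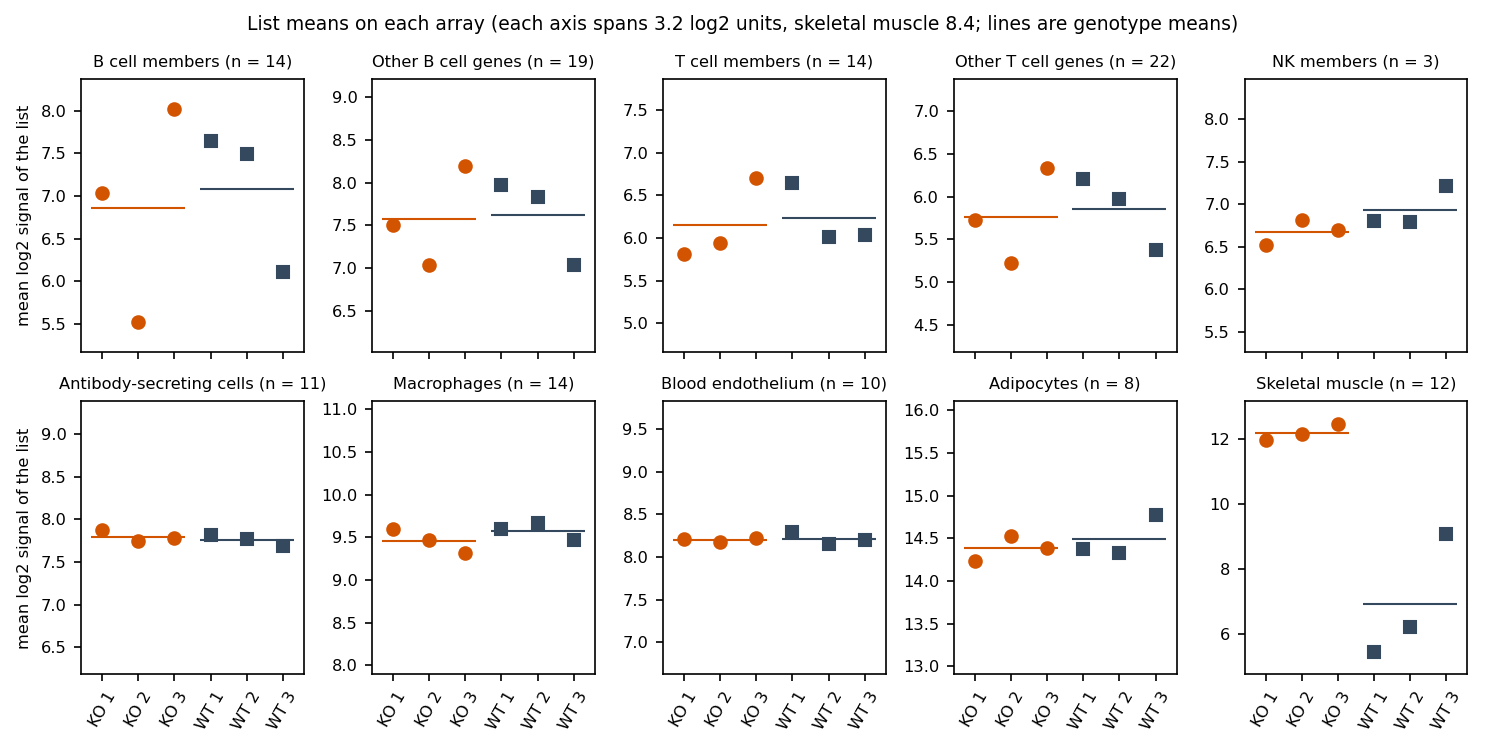
Mean log2 signal of 10 gene lists on each array (points for Naa10-KO, labelled KO, squares for WT, lines for genotype means), with the number of genes in each title. The B cell lists spread widely within both genotypes, and the other T cell genes nearly as much as the other B cell genes when dim genes are included. Macrophage, endothelium and antibody-secreting lists lie nearly level, and skeletal muscle separates Naa10-KO from WT.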

How the data were processed

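Per the labels' protocols, total RNA of inguinal fat was extracted with TRIzol, freed of lipid and purified on RNeasy Plus columns, and biotin-labelled cRNA was made from 3 µg of it for Affymetrix mouse expression arrays. For 45101 probe sets per array, the authors deposited a signal on the log2 scale. The software that computed it is not given in the labels. Every array had a linear mean of 500 once 2% was trimmed from each end, so each carries a global scaling, and no further normalization was applied. No floor was set on low values.

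Probe sets were named through the GEO platform annotation of this array, with symbols checked against a RefSeq table of assembly GRCm38.p6. Of 45037 probe sets other than controls, 34945 had 1 gene, 932 several and 9160 none, and 18193 genes were tested. All 34 measured genes of the set are reported, those at low signal by range. From other lists, genes past the threshold, with the smallest p or with the widest range were eligible to be named. The genes of the set, the gene lists, the motifs and the tests were chosen with earlier results of these data known.

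The genotypes were compared in limma (version 3.58.1, R version 4.3.3) by lmFit and eBayes with genotype as the only term and 2-sided tests, with Benjamini-Hochberg adjustment over all genes. Differences are Naa10-KO minus WT with moderated SE. The script was tested on simulated data. The number of arrays limits the precision. Alternatives were quantile normalization, median centring, a filter and a floor on low values, other choices of probe set, limma's trend, robust and array-weight options, other thresholds, a replicate block and leaving out each array. Over all genes, dim ones included, deviations of same-numbered mice had r of -0.0067, -0.0057 and -0.0306. Differently numbered mice gave r from -0.0137 to 0.0203, so this check cannot tell whether the numbers pair the mice. The labels name no batch, and the main fit did not pair them.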

Additional observations from a re-analysis of the deposited data

How the results depend on the processing

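With limma at an adjusted p of 0.05, 0 genes of the set were called higher and 0 lower under each alternative tried, including the replicate block, under which 0 were called either way, and including every array left out. At an unadjusted p of 0.05, 1 gene of the set (Pax5) was lower and 0 were higher as reported, against 1 higher and 0 lower with the floor, 1 higher and 1 lower with the filter or without WT replicate 3, Naa10-KO replicate 1 or Naa10-KO replicate 2, 0 and 0 with probe set means, and 0 higher and 3 lower without Naa10-KO replicate 3. The smallest adjusted p of Pax5 over its alternatives was 0.0794, with the filter on low values, where 11795 genes were tested. Of 497 differences of single genes under the alternatives, 66 changed sign, 46 of them with an array left out, and 10 of the 34 genes never did. Over all genes, counts called higher and lower in Naa10-KO were 16 and 5 as reported, 0 and 0 with probe set means, the replicate block or any array but WT replicate 3 left out, 29 and 1 without WT replicate 3, 27 and 7 with array weights, 75 and 12 with the filter, 105 and 14 with the floor, and 102 and 35 with the trend and robust options.

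The median difference of the organisers was 0.62 with the filter on low values, which leaves 2 of them, against -0.32. With each array left out in turn, the median difference ran from -0.57 to 0.22 over the 34 genes, from -0.78 to 0.53 over the B cell genes, from -0.32 to 0.08 over the T cell genes and from -0.90 to 0.27 over the organisers. The spread of the B cell mean ran from 0.98 to 2.50 among Naa10-KO and from 0.15 to 1.54 among WT arrays, and that of the T cell mean from 0.12 to 0.89 among Naa10-KO and from 0.031 to 0.64 among WT arrays. Naa10-KO replicate 3 was the highest and Naa10-KO replicate 2 the lowest Naa10-KO array of the B cell mean, and WT replicate 3 the lowest WT array, also under quantile normalization, median centring, the floor and both other choices of probe set. The highest WT array was replicate 1, or replicate 2 with the floor or with probe set means.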

Other observations

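The chemokines that draw T cells into the node were seen only through probe sets annotated to several near-identical genes. The probe set shared by Ccl19 and its copies read 8.06, 7.05 and 8.63 in Naa10-KO tissue and 8.26, 7.99 and 7.93 in WT tissue. The probe set shared by Ccl21a and its copies read 7.48, 8.08 and 8.65 in Naa10-KO tissue and 7.09, 8.17 and 7.58 in WT tissue. Naa10-KO replicate 3 was the highest Naa10-KO array of both, as it was for most B cell genes.

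Among the 11795 genes whose higher genotype mean reached the median of all probe sets, 11 had the complete B cell order (Naa10-KO replicate 3 highest, Naa10-KO replicate 2 and WT replicate 3 lowest) with a range over 1.5 in both genotypes. Of these, 4 belong to the set (Cr2, Ms4a1, Fcrla and Cd22) and 4 to the further lymphoid lists (H2-Ob, Bcl11a, Btla and Spib). The other 3 are Ighv14-2, an immunoglobulin heavy chain variable gene, and the calcium channel genes Cacna1f and Ryr2. They were chosen after their values were seen, on the same arrays that gave the order, and no test was made of it. With a range over 1 in both genotypes, 54 genes had the order, of which 8 belong to the set.

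Among the 10 measured genes of germinal centre and dividing cells, WT replicate 3 was the lowest WT array in 7, against 34.8% of all genes. The complete B cell order held in 3 of the 10, against 6.44% of all genes. Bcl6 of that list and the lymphatic gene Lyve1 had other array orders. Bcl6, a factor of germinal centre B cells that fat cells also make, read 9.57, 10.63 and 10.13 in Naa10-KO tissue and 9.33, 9.14 and 9.35 in WT tissue, a difference of 0.84 (SE 0.30, limma's adjusted p = 0.524). Lyve1, a receptor of lymphatic vessels and some macrophages, read 11.54, 10.90 and 10.08 in Naa10-KO tissue and 10.36, 10.72 and 10.00 in WT tissue, and its highest array was Naa10-KO replicate 1, as for Cxcl13.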
